A study of Mus musculus with 10 samples.

Results

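The genes described here encode guanine nucleotide exchange factors for Ras, the proteins that make Ras release GDP and take up GTP and so switch it on. There were 7 of them among the 27179 Entrez genes of the count table: the RasGRP genes Rasgrp1, Rasgrp2, Rasgrp3 and Rasgrp4, the calcium-responsive Rasgrf1, and the receptor-linked Sos1 and Sos2. They were taken by symbol. Rasgrp3 had passed the test over all genes in an earlier look at the same comparison, and the others were added as its relatives, so the family was chosen by the EpithelialKO and Flox values of Rasgrp3 themselves, which are given as a description.

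RNA of whole lung was sequenced in 10 mice. The EpithelialKO group held 5 mice with floxed alleles of the gene for IRE1α on both chromosomes (IRE1α fl/fl) and 1 copy of Cre in the Shh locus (Shh Cre/+). The Flox group held 5 mice with the same floxed alleles and no Cre (Shh +/+). Cre from this locus acts in the lung epithelium, while whole lung also holds endothelial, stromal and blood-borne cells that keep the alleles. IRE1α, encoded by Ern1, is a sensor of unfolded protein in the endoplasmic reticulum. The comparison asks how the lung transcriptome differs between floxed mice with and without Cre in the Shh locus. Loss of IRE1α in the epithelium, the presence of Cre and the altered Shh allele go together here and cannot be told apart. Age, sex and strain are not given in the labels.

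Totals were 16234895 to 18870247 counts in EpithelialKO and 14983829 to 21224412 in Flox mice. Ern1 stood at 10.7 to 26.1 CPM (counts scaled to library size and by TMM, which corrects for composition) in EpithelialKO and at 8.05 to 20.5 CPM in Flox mice, which is no check of the genotypes, since the floxed exons are not named in the labels and whole lung holds cells that keep the gene. Flox mice 4 and 6 stood apart from all others, with 3949 and 4866 counts of Xist, the RNA of the inactive X chromosome. They had 0 counts of 4 Y-linked genes, a pattern of females. All other mice had 2 to 61 counts of Xist and 2462 to 3575 Y-linked counts, a pattern of males. By these counts the groups were not balanced for sex. Each member's fold change is therefore also given without Flox mice 4 and 6. Summed markers of epithelium were at 74800 to 80000 CPM in EpithelialKO and 54200 to 79900 CPM in Flox mice, and no marker gene of the epithelial, endothelial, B cell or T cell lists was at 0.

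Ras exchange factors share a catalytic domain first described in the yeast protein Cdc25, and differ in what brings them to the membrane. RasGRP proteins carry a C1 domain, which in most of them binds diacylglycerol, the lipid that phospholipase C makes. They act mainly in blood cells and endothelium. Sos proteins are carried to activated receptor tyrosine kinases by the adaptor Grb2, and Rasgrf1 responds to calcium and calmodulin, mostly in neurons. Rasgrp3 is known from B cells and from endothelial cells, where it takes part in responses to diacylglycerol and to vascular growth factor.

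Rasgrp3 (Entrez 240168) lies on the plus strand of chromosome 17 at 75435870 to 75529054 in GRCm38. The RefSeq promoter table of GRCm38.p6 listed 2 start regions for it, and a gene count adds the reads from both. The 250 bases before each start are shown because this was the only one of the 7 genes in which the groups did not overlap. Both starts, at 75435905 and 75465538, lie inside the gene span given above. The end of the first stretch and all of the second therefore lie within that span. Capitals mark AGGAAGT, a form of the site bound by ETS factors, which are abundant in endothelium; this form was picked after the sequence had been seen.

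Rasgrp3 upstream, chr17:75435655-75435904: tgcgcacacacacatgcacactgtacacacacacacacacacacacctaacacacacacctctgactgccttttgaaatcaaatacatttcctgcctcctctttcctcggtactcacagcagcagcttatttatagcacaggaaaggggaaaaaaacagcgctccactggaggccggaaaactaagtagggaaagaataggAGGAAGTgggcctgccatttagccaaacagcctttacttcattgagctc

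Rasgrp3 upstream, chr17:75465288-75465537: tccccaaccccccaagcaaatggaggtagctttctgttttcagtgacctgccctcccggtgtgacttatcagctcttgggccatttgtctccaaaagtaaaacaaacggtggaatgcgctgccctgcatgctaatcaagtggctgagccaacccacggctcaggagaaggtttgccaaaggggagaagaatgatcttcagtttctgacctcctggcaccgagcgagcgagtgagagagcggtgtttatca

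The first region held 1 match to AGGAAGT (both strands searched, over the 250 bases before and 50 after a start) and the second held none. Of all 32851 promoters in the table, 9.35% had a match, so 1 match in these windows is a description of letters and not of binding. Both Rasgrp3 windows, and the 6 windows listed for Rasgrp1, Rasgrp2, Rasgrf1, Sos1 and Sos2, had 0 matches to TGACGTGG, an element that XBP1 binds (0.676% of all promoters), to the endoplasmic reticulum stress element known as ERSE (0.119%) and to the Gli site GACCACCCA (0.253%). Rasgrp4 had no entry in the promoter table.

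Rasgrp3 was lower in every EpithelialKO lung than in any Flox lung. Mice 17, 18, 20, 21 and 22 of the EpithelialKO group had 71.1, 54.0, 64.4, 55.5 and 48.8 CPM, against 81.4, 93.3, 92.5, 103 and 103 CPM in Flox mice 2, 3, 4, 5 and 6. The highest EpithelialKO value, in mouse 17, lay below the lowest Flox value, in mouse 2. The means were 58.8 ± 8.91 CPM in EpithelialKO and 94.7 ± 9.01 CPM in Flox lungs (SD, n = 5 each), so the EpithelialKO mean was 62.0% of the Flox mean. The fitted log2 fold change, EpithelialKO over Flox, was -0.69 ± 0.11 (SE), with a 95% interval from -0.92 to -0.45.

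**Figure D1:**
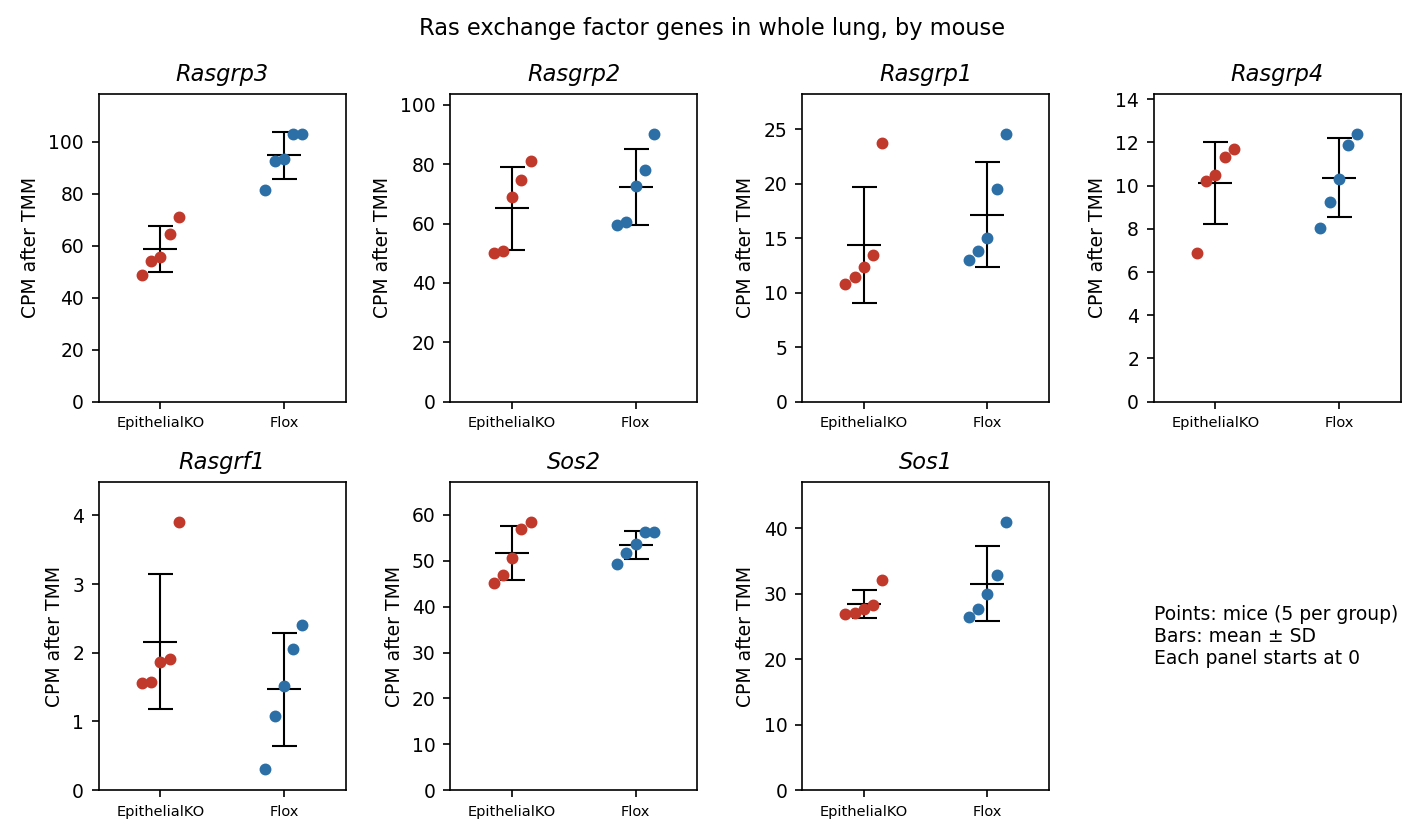
CPM after TMM of each of the 7 Ras exchange factor genes in 5 EpithelialKO and 5 Flox lungs; points are mice, and bars give the mean and SD of the group. For Rasgrp3 the EpithelialKO points (48.8 to 71.1 CPM) lie below all Flox points (81.4 to 103 CPM), and in the other genes the groups overlap.

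Of the 7 members, 1 passed an adjusted p of 0.05 over all genes tested, which was Rasgrp3 (edgeR quasi-likelihood test, adjusted p = 0.0272), and 0 were higher. Over all 15301 genes the same rule called 0.0392% in either direction, with 0.0327% lower and 0.00654% higher. Since this comparison chose Rasgrp3, nothing is read from that count. Of the 7 members, 1 had all EpithelialKO mice below all Flox mice, against 1.48% of all genes, and 0 had them all above, against 1.63%. The call of Rasgrp3 was held at an adjusted p of 0.0322 without Flox mouse 5 and was lost without any other single mouse (edgeR adjusted p from 0.0535 to 0.109), while the log2 fold change stayed between -0.77 and -0.63. Without Flox mice 4 and 6 it was -0.65 with an adjusted p of 0.214.

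The other RasGRP genes are mainly known from blood cells. Rasgrp2 (Entrez 19395, chromosome 19, 6398957 to 6415216) encodes CalDAG-GEFI, which activates Rap1 in platelets. It had 69.0, 74.7, 81.0, 50.7 and 50.1 CPM in the EpithelialKO mice in the order above, against 72.6, 60.7, 78.1, 90.3 and 59.5 CPM in the Flox mice. EpithelialKO mice 21 and 22 were below all Flox mice and the other 3 lay among them. The log2 fold change was -0.15 ± 0.15 (SE, 95% interval -0.47 to 0.17, edgeR adjusted p = 0.735), with -0.24 when EpithelialKO mouse 20 was left out and -0.06 without Flox mouse 5.

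Rasgrp1 (Entrez 19419, chromosome 2, 117279983 to 117342877) encodes the exchange factor that activates Ras behind the T cell receptor. It had 13.5, 11.4, 23.7, 12.4 and 10.8 CPM in EpithelialKO mice and 19.5, 15, 24.6, 13.8 and 13.0 CPM in Flox mice. EpithelialKO mouse 20 stood among the highest Flox values, whereas mice 18, 21 and 22 were below all Flox mice. The log2 fold change was -0.26 ± 0.23 (SE, 95% interval -0.75 to 0.22, edgeR adjusted p = 0.682), with -0.52 when EpithelialKO mouse 20 was left out and -0.10 without Flox mouse 4 (adjusted p = 0.319 and 0.926). Summed markers of T cells, in which Rasgrp1 is best known, were at 132 to 233 CPM in EpithelialKO and 136 to 237 CPM in Flox mice. In edgeR 0 of the 10 passed, with 1 at an unadjusted p under 0.05, where 12.4% of all genes tested lay.

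Rasgrp4 (Entrez 233046, chromosome 7, 29134607 to 29153961), known from mast cells and other myeloid cells, had 11.7, 11.3, 10.5, 10.2 and 6.87 CPM in EpithelialKO mice and 11.9, 9.22, 8.04, 12.4 and 10.3 CPM in Flox mice. The groups lay over each other apart from EpithelialKO mouse 22, the lowest of all. Its log2 fold change was -0.03 ± 0.19 (SE, 95% interval -0.43 to 0.37), with an edgeR adjusted p of 0.973. The GENCODE annotation places 978 bases of the exons of Fam98c and 181 of the antisense RNA Gm16282 on exons of Rasgrp4, on the other strand, and 265 bases of Gm14965 on those of Rasgrp2. Fam98c itself was at 12.6 CPM in EpithelialKO and 13.0 CPM in Flox mice. Since the strand setting of the counting is not given in the sources used here, reads of such neighbours cannot be told apart from those of Rasgrp4 and Rasgrp2.

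The intervals of Sos2, Rasgrp3 and Sos1 were the narrowest of the 7. Sos2 (Entrez 20663, chromosome 12, 69583761 to 69681852), which mice can do without, had 46.9, 56.9, 45.1, 50.7 and 58.4 CPM in EpithelialKO mice, against 53.6, 56.2, 51.6, 49.3 and 56.3 CPM in Flox mice. EpithelialKO mice held both the lowest and the highest values, and the Flox mice lay between them. The log2 fold change of Sos2 was -0.05 ± 0.10 (SE, 95% interval -0.26 to 0.16, edgeR adjusted p = 0.89), and it ranged from -0.10 to 0.00 without single mice. Sos1 (Entrez 20662, chromosome 17, 80393752 to 80480453), without which mouse embryos die, had 28.3, 26.9, 27.1, 32.1 and 27.7 CPM in EpithelialKO mice and 27.6, 29.9, 26.5, 40.9 and 32.8 CPM in Flox mice. All EpithelialKO values lay within the range of the Flox values, and the log2 fold change was -0.15 ± 0.13 (SE, 95% interval -0.42 to 0.12, edgeR adjusted p = 0.677), with -0.04 when Flox mouse 5 was left out. Rasgrp3 and Sos1 lie on the same chromosome.

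Rasgrf1 (Entrez 19417, chromosome 9, 89909508 to 90026979), an imprinted gene of which mice mainly use the paternal copy, was close to the lower limit of the assay, with 6 to 71 counts per mouse. It had 1.91, 3.90, 1.56, 1.57 and 1.86 CPM in EpithelialKO mice and 2.05, 1.08, 1.52, 2.4 and 0.305 CPM in Flox mice. The extremes were EpithelialKO mouse 18 and Flox mouse 6, and the others overlapped. Its log2 fold change of 0.56 ± 0.49 (SE, 95% interval -0.48 to 1.60, edgeR adjusted p = 0.686) was the only positive one among the 7 in the edgeR test, with the widest interval. It was 0.23 when EpithelialKO mouse 18 was left out and 0.30 without Flox mouse 6.

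**Figure D2:**
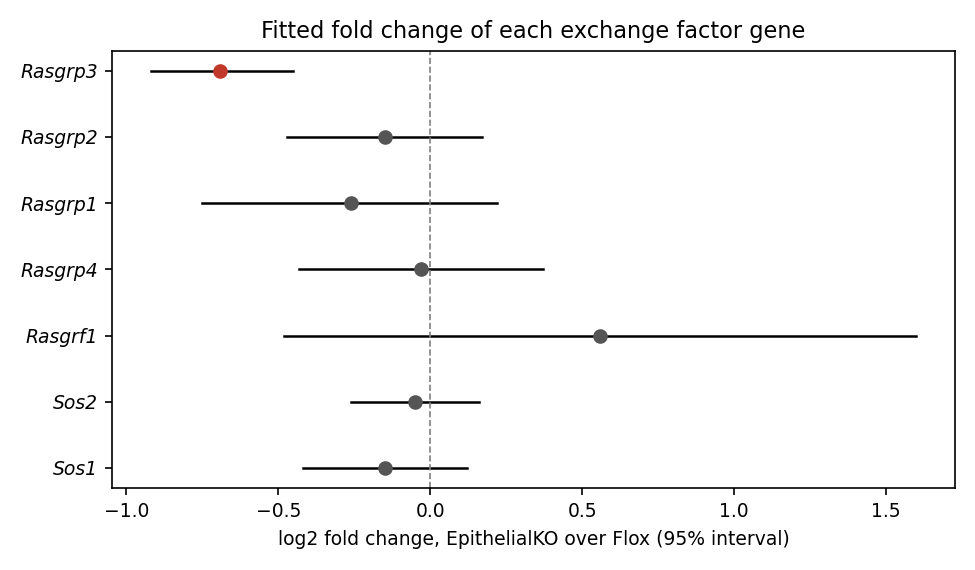
Fitted log2 fold change (EpithelialKO over Flox) of each Ras exchange factor gene, with its 95% interval from edgeR. The interval of Rasgrp3 (-0.92 to -0.45) lies below 0, and those of the other 6 genes include 0.

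Of the 6 relatives, 0 passed in edgeR, and DESeq2 and limma-voom also called 0 of them, though DESeq2 gave Rasgrf1 no adjusted p. In edgeR 0 of the 6 had an unadjusted p under 0.05. Since 12.4% of all genes tested had such a p, a count of 0 among 6 is near that background. The 95% interval of Rasgrp3, -0.92 to -0.45, overlapped those of Rasgrp1, Rasgrp2 and Rasgrf1 and lay below those of Rasgrp4, Sos1 and Sos2. Whether Rasgrp3 differed more than its relatives was not tested, because its difference is what chose it. Without Flox mice 4 and 6 the log2 fold changes were -0.17 for Rasgrp1, -0.19 for Rasgrp2, -0.14 for Rasgrp4, 0.23 for Rasgrf1, -0.20 for Sos1 and -0.04 for Sos2.

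Setting Rasgrp3 against its relatives within each mouse removes differences in scaling, and gene length cancels when the same ratio is compared between mice. Rasgrp3 was chosen by this comparison and did not overlap by itself, so lower ratios were favoured in advance and are given as a description. Rasgrp3 over Rasgrp2 was 1.03, 0.723, 0.795, 1.09 and 0.973 in EpithelialKO mice, against 1.12, 1.54, 1.19, 1.14 and 1.74 in Flox mice. All EpithelialKO ratios lay below all Flox ratios, although EpithelialKO mouse 21 and Flox mouse 2 nearly met. Rasgrp3 over Sos1 and Sos2 together was 0.567 to 0.945 in EpithelialKO and 1.0 to 1.18 in Flox mice, again without overlap. The ratio to Rasgrp1 overlapped, at 2.72 to 5.28 in EpithelialKO and 3.76 to 7.97 in Flox mice, and so did the ratio to Rasgrp4, at 4.77 to 7.10 in EpithelialKO and 6.84 to 11.5 in Flox mice. As a difference between the groups' mean log2 ratios, EpithelialKO minus Flox, the ratio to Rasgrp2 was -0.54, that to Rasgrp1 -0.41, that to Rasgrp4 -0.66 and that to both Sos genes -0.61, with within-group SDs of 0.27, 0.43, 0.26 and 0.23. Without single mice the difference in the ratio to Rasgrp1 ranged from -0.56 to -0.25.

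**Figure D3:**
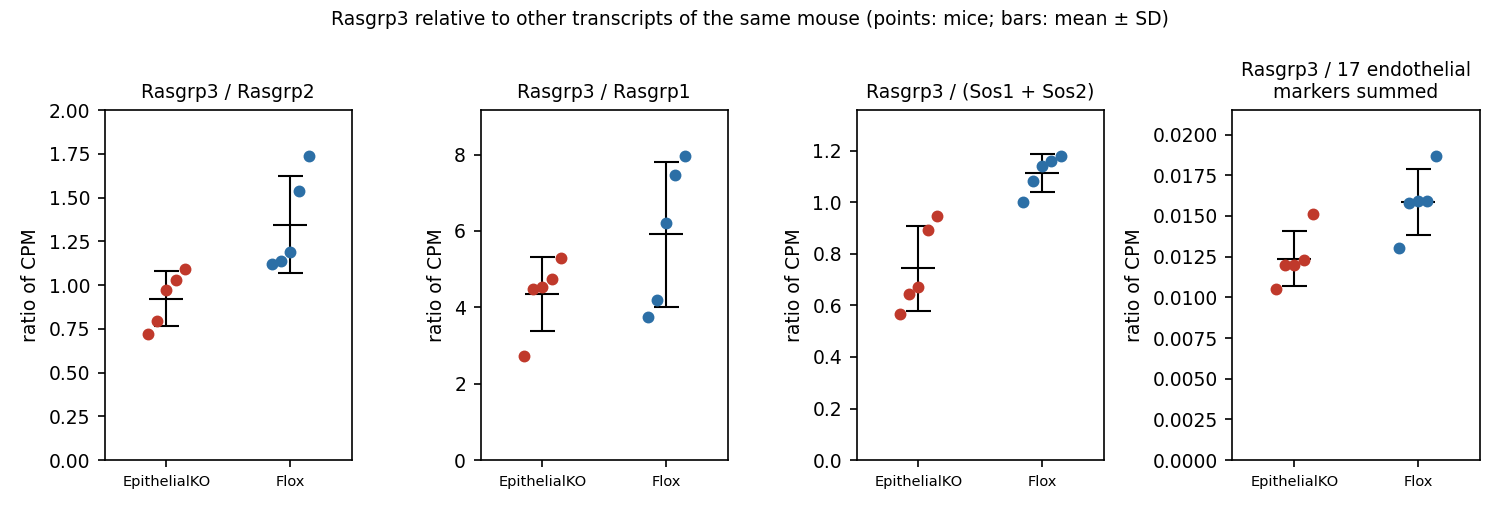
Rasgrp3 CPM divided by the CPM of Rasgrp2, of Rasgrp1, of Sos1 and Sos2 together and of 17 endothelial markers together, in each EpithelialKO and Flox mouse; bars give the mean and SD of 5 mice. The groups do not overlap in the ratios to Rasgrp2 and to the Sos genes, and they overlap in the ratios to Rasgrp1 and to the endothelial markers.

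Compared per kilobase of transcript, Rasgrp2 and Rasgrp3 were the most abundant of the 7. In EpithelialKO lungs Rasgrp2 had 28.4 ± 6.13 CPM per kilobase and Rasgrp3 12.4 ± 1.89, and in Flox lungs Rasgrp2 had 31.5 ± 5.57 and Rasgrp3 20.1 ± 1.91 (SD, n = 5 each). Sos2 came next with 11.4 ± 1.30 CPM per kilobase in EpithelialKO and 11.8 ± 0.67 in Flox lungs. Rasgrp3 exceeded Sos2 in 3 of 5 EpithelialKO mice and in 5 of 5 Flox mice, so that per kilobase of transcript these neighbours did not differ beyond their spread in EpithelialKO lungs. Sos1 followed with 3.37 CPM per kilobase in EpithelialKO and 3.74 in Flox lungs, then Rasgrp1 with 2.74 in EpithelialKO and 3.28 in Flox lungs, and Rasgrp4 with 2.19 in EpithelialKO and 2.24 in Flox lungs. The ranges of these neighbours overlapped. Rasgrf1 was last with 0.528 CPM per kilobase in EpithelialKO and 0.359 in Flox lungs. The share of Rasgrp3 in the sum of the 7 genes per kilobase was 17.5% to 23.4% in EpithelialKO and 24.4% to 31.7% in Flox mice. The order of the top genes depends on the length used: per kilobase of coding sequence Rasgrp2 exceeded Rasgrp3 in 5 of 5 EpithelialKO mice but in 1 of 5 Flox mice, and Rasgrp3 exceeded Sos2 in 5 of 5 mice of each group.

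Markers of the cell types known for Rasgrp3 had negative fold changes, and so did most markers of several other cell types. All 17 endothelial markers, among them the junction cadherin Cdh5, the VEGF receptor Kdr and the angiopoietin receptor Tek, had negative log2 fold changes, from -0.52 to -0.02 with a median of -0.37, beside a median of 0.00 over all genes tested. Their summed level was 3970 to 5360 CPM in EpithelialKO and 5500 to 6530 CPM in Flox mice, without overlap, and the EpithelialKO mean was 79.5% of the Flox mean. Most other list sums overlapped. The sum of the adaptors that bring Sos to receptors did not, at 661 to 716 CPM in EpithelialKO and 720 to 832 CPM in Flox mice. In edgeR 0 of the 17 endothelial markers passed, with 11 at an unadjusted p under 0.05, where 12.4% of all genes tested lay. DESeq2 called 5 of the 17, against 2.21% of the genes to which it gave an adjusted p, and limma-voom 2, against 0.209% of all genes. Of all 15301 genes tested, 389 had a fold change below that of Rasgrp3, which this comparison had chosen. None of the endothelial markers did. Rasgrp3 over their summed level was 0.0105 to 0.0151 in EpithelialKO and 0.0130 to 0.0187 in Flox mice, where EpithelialKO mouse 17 and Flox mouse 2 overlapped, with a log2 difference of -0.36.

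B cell markers were negative in 10 of 10 cases, with a median of -0.47. In edgeR 0 passed (4 at an unadjusted p under 0.05, where 12.4% of all genes tested lay). Below Rasgrp3, where 389 of all 15301 genes tested lay, was 1 of the B cell markers, Fcer2a at -0.72. Their sum was 147 to 268 CPM in EpithelialKO and 211 to 457 CPM in Flox mice. Rasgrp3 over that sum was 0.234 to 0.331 in EpithelialKO and 0.203 to 0.489 in Flox mice, so the EpithelialKO mice lay inside the Flox range, and the log2 difference of -0.25 moved between -0.43 without Flox mouse 4 and -0.12 without Flox mouse 6. Markers of fibroblasts, pericytes and smooth muscle were negative in 11 of 11 cases, with a median of -0.44, 0 passed in edgeR (7 at an unadjusted p under 0.05), and their sum was 758 to 1040 CPM in EpithelialKO and 984 to 1150 CPM in Flox mice. NK cell markers were negative in 9 of 9 cases with a median of -0.18, and neutrophil markers in 7 of 8 with a median of -0.30. Macrophage and monocyte markers were positive in 5 of 7 cases with a median of 0.10. Epithelial markers were positive in 13 of 14 cases with a median of 0.28. In edgeR 0 of the 14 passed, with 8 at an unadjusted p under 0.05, where 12.4% of all genes tested lay. The marker lists and the ratios of Rasgrp3 were not recomputed without Flox mice 4 and 6. The part of these cell types in the difference of Rasgrp3 was not tested, and in whole lung fewer cells of a type and less RNA per cell cannot be told apart. Of the cells known for the relatives, platelet markers summed to 59.8 to 105 CPM in EpithelialKO and 59.0 to 94.7 CPM in Flox mice, and mast cell and basophil markers to 9.56 to 14.4 CPM in EpithelialKO and 6.70 to 19.5 CPM in Flox mice, with Tpsab1 at 0 in all mice.

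Around the exchange factors, 96 genes of 8 lists were tested, and 0 passed in edgeR or in limma-voom, while DESeq2 called 1, Dgke. An unadjusted p under 0.05 in edgeR was found for 15 of the 96, against 12.4% of all genes, which is near that background. None of the GTPases passed: Hras had a log2 fold change of 0.11 ± 0.11, Rap2a -0.22 ± 0.10 and Mras -0.15 ± 0.16 (SE), and the list had a median of -0.02 over 11 genes. Other genes for proteins with a domain of the same kind, most of them exchange factors for Rap, Ral or Ras, had a median of -0.19, with 13 of 16 negative. Rasgrf2, on this list, had -0.18 ± 0.13 (SE). Rapgef1, which activates Rap1 at adhesion sites, was at 109 ± 6.34 CPM in EpithelialKO and 131 ± 6.99 CPM in Flox lungs (SD, n = 5 each) without overlap. No other of the 96 genes had all EpithelialKO mice below all Flox mice, so this is near the 1.48% of all genes tested. The log2 fold change of Rapgef1 was -0.27 ± 0.08 (SE, edgeR adjusted p = 0.185). Rapgef2 had -0.30 ± 0.11 and the cyclic AMP sensor Rapgef3 -0.37 ± 0.14.

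The lipid that most RasGRP proteins bind is made by phospholipases C and removed by diacylglycerol kinases. This list had a median of -0.16 with 9 of 13 negative. The diacylglycerol kinase Dgke was at 11.5 ± 3.44 CPM in EpithelialKO and 18.9 ± 2.98 CPM in Flox lungs (SD, n = 5 each). Its log2 fold change of -0.71 ± 0.19 (SE) did not pass (edgeR adjusted p = 0.153). The phospholipases Plcb2 and Plcg2, of blood cells, had -0.31 ± 0.14 and -0.31 ± 0.16. Other proteins with a diacylglycerol-binding C1 domain had a median of -0.10, with the protein kinases C Prkcb at -0.51 ± 0.20, Prkce at -0.34 ± 0.13 and Prkch at -0.25 ± 0.11.

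Among the adaptors that bring Sos to receptors the median was -0.16 with 9 of 11 negative, and the lowest p belonged to the docking proteins Gab1 (-0.25 ± 0.11) and Gab2 (-0.22 ± 0.12) and the leukocyte adaptor Grap2 (-0.36 ± 0.22). GTPase-activating proteins, which switch Ras off, had a median of -0.22 with 7 of 9 negative, with the lowest p in Rasa3 (-0.28 ± 0.13), Rasal2 (-0.28 ± 0.14) and Dab2ip (-0.15 ± 0.09). The kinases downstream had a median of -0.05, with the kinase Map2k1 at 0.13 ± 0.10 and the S6 kinase Rps6ka2 at -0.37 ± 0.17. Feedback and output genes of ERK signalling had a median of -0.01 with 8 of 14 negative: the inhibitor Spry4 had -0.64 ± 0.24, the phosphatase Dusp6 -0.24 ± 0.13 and the cyclin Ccnd1 0.21 ± 0.09.

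**Figure D4:**
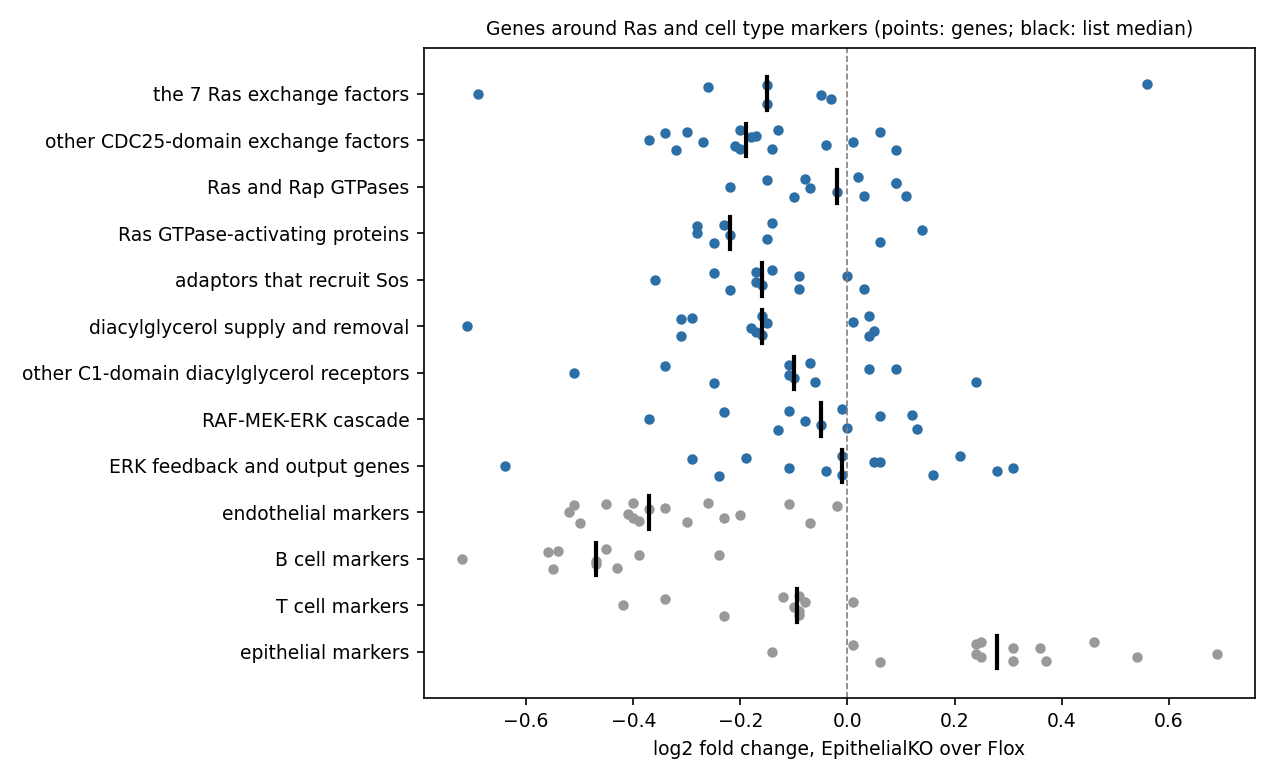
Log2 fold changes (EpithelialKO over Flox) of the tested genes of each list; points are genes and the black bar is the list median. The medians of the Ras pathway lists lie between -0.22 and -0.01, that of the endothelial markers at -0.37, that of the B cell markers at -0.47 and that of the epithelial markers at 0.28.

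The genes whose levels followed Rasgrp3 most closely within the groups were sought over the 10 mice after subtracting each group's mean from log2 CPM. The search covered 13739 genes with a mean of at least 1 CPM, with members and predicted gene models left out. The 6 highest were the cohesion factor Cdca5 (Pearson r = 0.95, Spearman rho = 0.98), the fibronectin receptor chain Itga5 (0.93 and 0.92), the NF-κB subunit Rela (0.93 and 0.93), the proteasome assembly factor Psmd9 (0.92 and 0.92), Rbak (0.92 and 0.85) and the ligand Wnt2 (0.92 and 0.96). Between the groups these genes differed in sign: Wnt2 was at 6.40 CPM in EpithelialKO and 11.4 CPM in Flox lungs, Itga5 at 33.2 CPM in EpithelialKO and 39.6 CPM in Flox lungs, and Psmd9 at 36.7 CPM in EpithelialKO and 29.8 CPM in Flox lungs. None of the 6 passed in edgeR. Cdca5 was close to the limit of 1 CPM, at 1.84 CPM in EpithelialKO and 1.57 CPM in Flox lungs. For the relatives the closest genes were Ptprcap, Nat2 and Srgn for Rasgrp1 (r from 0.91 to 0.95), Zfp212, Siglecg and Snrnp40 for Rasgrp2 (0.96 to 0.99), Dcaf5, Acvr1 and Adcy4 for Rasgrp4 (0.95 to 0.98), Rassf7, P4ha2 and Jag2 for Rasgrf1 (0.90 to 0.94), Ywhag, Dnajc21 and Brpf1 for Sos1 (0.93 to 0.97) and Rapsn, Ldhd and Slc25a43 for Sos2 (0.93 to 0.94). Values this high are the largest of 13739 over 10 mice that share their libraries' depth and composition, so they describe these mice and carry no p.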

How the data were processed

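Per the labels' protocols, Trizol extraction of whole lung was followed by oligo(dT) capture, fragmentation and random-primed cDNA synthesis. Per the submitters' processing notes, cutadapt, HISAT2 and the build GRCm38 were used; the sources used here do not give their versions, the counting tool, its annotation or its strand setting. The deposited values are raw counts per Entrez gene, 1 column per mouse, and 25275 of the 27179 genes matched a RefSeq symbol. Mice of a group differed beyond counting noise (chi-square per degree of freedom of 17.0 or more).

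Counts were filtered with filterByExpr (15301 genes, all 7 members included), and scaled by TMM, and the main test was the quasi-likelihood one of edgeR 4.0.16 (R 4.3.3), with Benjamini-Hochberg adjustment over all genes and a threshold of 0.05. The test was tested on simulated data. Alternatives were other scalings and filters, DESeq2 1.42.0, limma-voom (limma 3.58.1), a threshold of 0.1, leaving out each mouse, and leaving out Flox mice 4 and 6. Transcript length was that of the GENCODE M21 transcript with the longest coding sequence. The members, lists and tests were chosen with earlier results of these data known. Named were all members, the 3 genes of lowest p per pathway list (1 of them is not reported here), and the 6 genes most correlated with Rasgrp3 and 3 with each relative; the endothelial markers Cdh5, Kdr and Tek, genes that check samples or overlap members, and the motifs were named outside this rule.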

Additional observations from a re-analysis of the deposited data

Results flagged for a closer look

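Among 36 sets of 5 values of one group (the 7 genes, the ratios of Rasgrp3 and its share), 4 held a mouse far from the other 4; chance marks about 1 in 20 such sets. EpithelialKO mouse 20 had 23.7 CPM of Rasgrp1, where the others of its group reached at most 13.5 CPM. EpithelialKO mouse 18 had 3.9 CPM of Rasgrf1, against at most 1.91 CPM in the rest of its group. EpithelialKO mouse 21 had 32.1 CPM of Sos1, with the next at 28.3 CPM. Flox mouse 6 had a ratio of Rasgrp3 to Rasgrf1 of 339, which rests on 6 counts of Rasgrf1.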

How the results depend on the processing

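In the main edgeR test 1 gene was higher and 5 were lower. Upper quartile scaling gave 2 higher, DESeq2 110 higher and 169 lower, limma-voom 12 and 20, no count filter 12 and 22, and a threshold of 0.1 gave 13 and 25. Without Flox mice 4 and 6 edgeR called 0 higher and 0 lower, with 1207 genes at an unadjusted p under 0.05, and 0 members. Leaving out 1 mouse gave 0 to 17 higher, 0 to 31 lower and 0 to 1 members lower. Those fits hold fewer mice. In the 9 fits with 0 calls, 1444 to 1960 genes had an unadjusted p under 0.05. Rasgrp4 turned from -0.03 to 0.04 in limma-voom and ranged from -0.11 to 0.08 without single mice. Per kilobase of coding sequence the mean levels were 6.61 for Rasgrp1, 37.6 for Rasgrp2, 37.0 for Rasgrp3, 5.03 for Rasgrp4, 7.58 for Sos1 and 13.1 CPM for Sos2. The medians of the pathway lists were recomputed with both other scalings and without Flox mice 4 and 6; that of the ERK feedback and output genes was 0.01 with upper quartile scaling and 0.03 without those mice, against -0.01. The log2 differences of the ratios of Rasgrp3 and of its share kept their sign without single mice, with the share between -0.48 and -0.38. They were not recomputed without Flox mice 4 and 6 together. No paired analysis was possible because the groups share no mouse number.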
